A study of Mus musculus with 12 samples.

Results

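The MS4A genes encode small membrane proteins related to CD20, the B cell antigen. The 8 genes described here, Ms4a4a, Ms4a4b, Ms4a4c, Ms4a4d, Ms4a6b, Ms4a6c, Ms4a6d and Ms4a7, were taken by symbol from the deposited expression tables. They are 8 of the 16516 gene symbols that the tables list, and 8 of the 16 listed symbols of the family. Expression had been measured by RNA-seq in mouse bone marrow-derived macrophages (BMMs), cells grown from marrow precursors. There were 4 groups of 3 libraries: wild type (WT, labelled WTfl/fl) and MGMT KO macrophages, given either DMSO, the vehicle, or DMXAA for 24 h. DMXAA is a small molecule that activates the mouse cytosolic DNA sensor adaptor STING. Mgmt encodes a DNA repair methyltransferase that removes alkyl groups from guanine. The labels name no Cre driver, and neither the age nor the number of mice is stated. Whether a group's 3 samples are separate mice is likewise not stated, so the p-values measure only the spread between these samples. All 12 libraries carry 1 batch label.

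MS4A proteins cross the membrane several times and sit at the cell surface or in endosomes, where several of them associate with receptors and alter their signalling. Different members mark different blood cells: MS4A1 is CD20 on B cells, MS4A2 is the beta chain of the high-affinity IgE receptor on mast cells, and the MS4A4, MS4A6 and MS4A7 groups are best known from monocytes, macrophages and some T cells. Mice carry several copies of the MS4A4 and MS4A6 genes beside each other where humans have fewer, and STING activation leads to type I interferon, to which many macrophage surface genes respond.

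The 8 genes lie in a single stretch of chromosome 19 in the mm10 build (GENCODE vM21 annotation), between bases 11321039 and 11604849, a span of 283.8 kb inside the 678.6 kb MS4A cluster. In order along the chromosome they are Ms4a7 (chr19:11321039-11336146, minus strand), Ms4a4a (chr19:11375523-11392790, plus), Ms4a4c (chr19:11404770-11427246, plus), Ms4a4b (chr19:11443553-11467055, plus), Ms4a6c (chr19:11469366-11482192, plus), Ms4a6b (chr19:11516512-11531256, plus), Ms4a4d (chr19:11536801-11558467, plus) and Ms4a6d (chr19:11586604-11604849, minus). All are annotated as protein-coding.

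RefSeq start regions (250 bases before to 50 after a start given by RefSeq, GRCm38.p6) were found for 7 of the 8 genes, Ms4a6d being the gene without an entry. Those of 2 pairs of neighbours are shown because each pair has related start regions and, in the data below, similar directions but different levels. Capitals mark GAGGAA, the core of the site of the myeloid factor PU.1, and GAAANNGAA, a pair of half-sites of the kind that interferon regulatory factors bind. The windows are chr19:11407411-11407710 for Ms4a4c, chr19:11443308-11443607 for Ms4a4b, chr19:11469118-11469417 for Ms4a6c and chr19:11518309-11518608 for Ms4a6b, all on the plus strand and written 5′ to 3′. Those of Ms4a4b and Ms4a6c cover the first base of the GENCODE gene, whereas those of Ms4a4c and Ms4a6b lie wholly inside it. Positions below are counted from the RefSeq start, which for Ms4a4c and Ms4a6b is not the first GENCODE base.
Ms4a4c: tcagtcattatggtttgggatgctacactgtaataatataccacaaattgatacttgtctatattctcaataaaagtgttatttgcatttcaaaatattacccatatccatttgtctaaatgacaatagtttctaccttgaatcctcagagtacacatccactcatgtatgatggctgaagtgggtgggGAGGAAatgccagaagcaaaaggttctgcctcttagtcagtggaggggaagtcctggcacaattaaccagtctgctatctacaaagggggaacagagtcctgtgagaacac
Ms4a4b: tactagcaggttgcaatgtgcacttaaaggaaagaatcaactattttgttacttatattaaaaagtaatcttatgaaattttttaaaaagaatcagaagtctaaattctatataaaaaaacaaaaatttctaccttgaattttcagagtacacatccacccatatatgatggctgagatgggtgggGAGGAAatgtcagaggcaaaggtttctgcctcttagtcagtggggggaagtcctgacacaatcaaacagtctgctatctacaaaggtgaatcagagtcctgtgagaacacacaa
Ms4a6c: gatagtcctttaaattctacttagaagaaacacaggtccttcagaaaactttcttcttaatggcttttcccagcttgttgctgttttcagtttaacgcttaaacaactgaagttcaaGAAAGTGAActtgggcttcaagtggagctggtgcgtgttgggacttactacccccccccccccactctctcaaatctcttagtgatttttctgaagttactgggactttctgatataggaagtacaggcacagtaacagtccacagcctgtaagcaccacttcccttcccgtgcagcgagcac
Ms4a6b: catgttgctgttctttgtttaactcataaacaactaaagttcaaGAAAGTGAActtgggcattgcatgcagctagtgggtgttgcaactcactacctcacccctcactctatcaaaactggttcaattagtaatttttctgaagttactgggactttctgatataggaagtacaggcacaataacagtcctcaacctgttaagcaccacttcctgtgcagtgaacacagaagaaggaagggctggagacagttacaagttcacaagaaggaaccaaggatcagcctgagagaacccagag

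The best local alignment of the Ms4a4c and Ms4a4b windows covered 182 bases with 89% identity, and that of Ms4a6c and Ms4a6b covered 218 bases with 86.2% identity and an identical run of 48 bases. GAAANNGAA, searched on both strands, lay from -133 to -125 in Ms4a6c and from -206 to -198 in Ms4a6b, as GAAAGTGAA in both, and also in both start regions listed for Ms4a7. It is held by 8.56% of all 32851 RefSeq windows of this length, and it was added to the search after the sequences had been seen. GAGGAA, which 28.3% of windows hold, lay from -61 to -56 in Ms4a4c, from -64 to -59 in Ms4a4b and from 44 to 49 in the first window of Ms4a7. The core of the interferon-stimulated response element, GAAANNGAA with 1 further A at its end (3.44% of windows), and the STAT site TTCNNNGAA (8.3%) were in no window of the 7 genes. The same held for the composite element of ETS and interferon regulatory factors (GGAA, any 2 bases, then GAAA; 2.72%), also added later. These are matches of letters and say nothing about which factor binds.

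Libraries held 79.5 to 98.1 M reads (M for 1e6) in listed genes, and levels are given below as reads per M reads of a library, while the tests used the deposited scaling. On that scale 3 reads in a library, used as the floor, correspond to 0.0306 to 0.0377. Mgmt itself was at 2.67 to 3.06 reads per M in WT and 1.36 to 2.03 in KO under DMSO, and at 0.919 to 1.24 and 0.351 to 0.636 under DMXAA. It had log2 differences of KO minus WT of -0.83 under DMSO and -1.11 under DMXAA (adjusted p = 5.66e-03 and 9.05e-03), without being absent, and counts over a whole gene do not show which exons remain. The 8 macrophage markers fixed for this check (among them Adgre1, Csf1r, Cd68, Itgam, Mertk, Fcgr1 and Lyz2) were present in all libraries. In WT they summed to 20400 to 20900 reads per M under DMSO and 11500 to 11800 under DMXAA. The KO sums were 16600 to 17400 and 9430 to 9520. With DMXAA 5 of the 8 were lower in WT and 7 in KO without overlap, and Fcgr1 alone was higher in each. The 10 T and NK cell markers summed to at most 1.33 reads per M, the 6 B cell markers to at most 2.02 and the 7 mast cell and basophil markers to at most 3.30. Each deposited table lists only genes with reads in at least 2 of its 6 libraries, and genes not listed were counted as 0 in these sums. Cd3d, Cd8a, Gzma, Ebf1, Mcpt8, Tpsb2, Fcer1a and Elane are listed in none of the 4 tables. The 7 monocyte markers summed to 52.7 to 62.7 reads per M in WT and 57.5 to 60.4 in KO under DMSO, and to 412 to 434 in WT and 262 to 340 in KO under DMXAA. Among the 7, Ly6c2, Ccr2 and Plac8 were higher and Cx3cr1, F13a1 and Nr4a1 lower under DMXAA in both genotypes, without overlap. The 6 dendritic cell markers summed from 0.266 to 1.02 in WT and 0.574 to 0.676 in KO under DMSO to between 5.51 and 6.71 under DMXAA in both genotypes, with Xcr1, Clec9a and Ccr7 higher without overlap and Zbtb46 and Flt3 overlapping in both. Siglech was at 0 in KO and not listed in WT under DMXAA.

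All 8 MS4A genes rose with DMXAA in WT macrophages, from 2.75-fold for Ms4a4a to 244-fold for Ms4a4c. The 3 libraries of DMXAA lay above the 3 of DMSO for each of the 8. Ms4a4d passed the filter on low values (a mean normalized count of at least 10) through its DMXAA libraries alone, so its call adds nothing, and the other 7 passed it in both groups. Over all 12752 genes tested, 31.7% were called higher (Benjamini-Hochberg adjusted p below 0.05, limma on log2(normalized count + 1)) and 34.7% had groups that did not overlap in the upward direction. The median log2 change of those 7 was 3.36 (that of Ms4a6d), beside -0.00 for all genes, and 5 of them rose at least 8-fold, as did 2.47% of all genes. In KO macrophages the 7 rose as well, with 33.7% of 12704 genes called higher and 35.8% without overlap in that direction, and 5 of them rose at least 8-fold (2.78% of all genes). Their median there was 4.09. In the DMXAA libraries Ly6c2, Ccr2, Plac8, Xcr1, Clec9a and Ccr7 were higher, and Cx3cr1, F13a1, Nr4a1 and most of the macrophage markers were lower. The part of these markers in the MS4A changes was not tested. In bulk RNA, more cells of a type and more RNA per cell cannot be told apart.

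**Figure D1:**
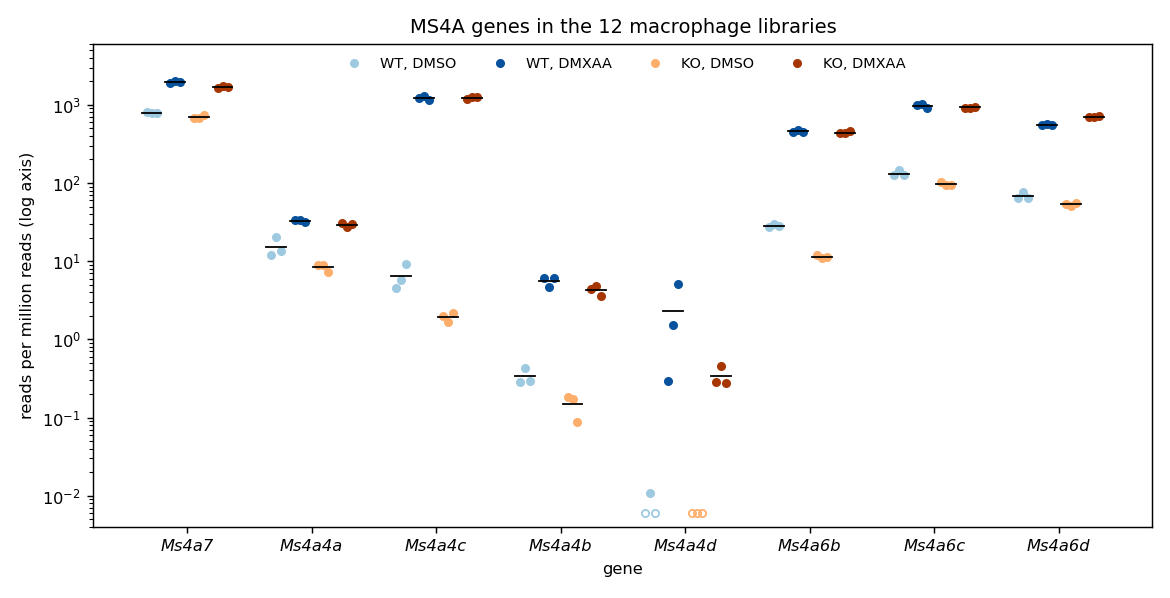
Reads per M reads (log axis) of the 8 MS4A genes in each of the 12 libraries; points are libraries, black lines group means (that of Ms4a4d in WT under DMSO lies under the axis), and open circles at the bottom stand for libraries with 0 reads, which a log axis cannot show. For every gene the DMXAA libraries lie above the DMSO libraries of the same genotype, and Ms4a4d spreads from 0.290 to 5.07 in WT under DMXAA.

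Ms4a7, a gene that marks mature and tissue macrophages, was the most abundant of the 8 under DMSO. In WT it stood at 799.6, 785 and 789.7 reads per M under DMSO and at 1928, 2028 and 1984 under DMXAA. The KO libraries held 687, 673 and 745 reads per M under DMSO and 1648, 1733 and 1708 under DMXAA. DMXAA libraries thus lay well above DMSO libraries in both genotypes, and KO libraries lay a little below WT libraries under either treatment. The log2 change with DMXAA was 1.64 ± 0.0407 (SE) in WT and 1.66 ± 0.0516 in KO (adjusted p = 3.36e-10 and 8.56e-10), close to 3.1-fold in each, and it was among the smaller changes of the family. These values rest on the deposited scaling and are larger than the reads per M give. Over the alternatives run, other scalings among them, the log2 change was 1.32 to 1.67 in WT and 1.27 to 1.74 in KO.

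Within the MS4A4 group, Ms4a4a, the mouse counterpart of a human macrophage surface protein that pairs with the beta-glucan receptor dectin-1, changed least. Its WT libraries held 11.9, 20.5 and 13.6 reads per M under DMSO and 33.2, 33.9 and 31.9 under DMXAA. Its KO libraries held 8.99, 8.92 and 7.36 under DMSO and 30.4, 27.7 and 29.9 under DMXAA. The DMSO libraries of WT were spread more widely than any other group of this gene, with replicate 2 the highest. Ms4a4a rose by 1.46 ± 0.160 (SE) in WT and 2.19 ± 0.0825 in KO (adjusted p = 2.38e-05 and 3.96e-09) on the log2 scale.

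Ms4a4c, a mouse gene often counted among interferon-stimulated genes of monocytes, changed most. Its WT libraries went from 4.50, 5.72 and 9.30 reads per M under DMSO to 1229, 1294 and 1141 under DMXAA. In KO the values were 2.0, 1.66 and 2.14 under DMSO and 1197, 1244 and 1261 under DMXAA. A gene that was low in every DMSO library thus reached levels of the order of the macrophage marker Csf1r in every DMXAA library. The log2 change was 7.93 ± 0.205 (SE, adjusted p = 4.45e-10) in WT, rank 14 from the top among 12752 genes. It was 9.71 ± 0.0904 (adjusted p = 4.28e-13) in KO, rank 10 among 12704. These are 244-fold and 836-fold.

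Ms4a4b, known mainly from T cells, where it associates with the co-stimulatory receptor GITR, was a low gene in these macrophages. In WT it was at 0.287, 0.435 and 0.289 reads per M under DMSO and at 6.18, 4.62 and 6.08 under DMXAA. The KO libraries had 0.180, 0.173 and 0.0877 under DMSO and 4.43, 4.83 and 3.60 under DMXAA. It rose by 4.34 ± 0.201 (SE) in WT and 5.19 ± 0.268 in KO (adjusted p = 3.86e-08 and 4.82e-08) on the log2 scale. In the 6 DMXAA libraries Ms4a4b had 339 to 533 reads. Of the 10 T and NK cell markers, Lck was higher under DMXAA, with 75 to 111 reads in WT against 48 to 66, and 81 to 120 in KO against 34 to 45. Cd2 had 0 to 4 reads under DMXAA, Cd3e and Cd3g were at 0 in KO and not listed in WT, and Cd3d was not listed. Their part in the change of Ms4a4b was not tested.

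Ms4a4d, a member whose function is little known, was close to silent without DMXAA. Its reads in WT were 0, 1 and 0 under DMSO and 25, 140 and 431 under DMXAA, or 0.290, 1.51 and 5.07 reads per M. In KO it had 0 reads in all 3 DMSO libraries and 28, 44 and 26 under DMXAA, or 0.285, 0.459 and 0.276 reads per M. Every DMXAA library held Ms4a4d, but the WT replicates of DMXAA differed from each other more than for any of the other 7 genes, and replicate 1 of WT lay within the KO range. The fitted log2 change was 6.72 ± 0.887 (SE) in WT and 5.15 ± 0.614 in KO, values that depend on the pseudocount. From the reads alone the ratio in WT was 599 (596 against 1 read, 95% counting interval 107 to 2.37e+04), and in KO Ms4a4d was at least 29.6-fold higher (98 reads against a floor of 3 over the group). These intervals and bounds cover counting error only.

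The MS4A6 genes were all expressed without DMXAA and rose together. Ms4a6b, another GITR partner known from T cells, had 27.4, 29.6 and 28.0 reads per M in WT under DMSO and 455, 476 and 448 under DMXAA. The KO values were 12.1, 10.9 and 11.2 under DMSO and 438, 432 and 456 under DMXAA. The replicates of each group lay close together, the genotypes were apart under DMSO and they overlapped under DMXAA. The log2 change was 4.34 ± 0.0487 (SE) in WT and 5.67 ± 0.0542 in KO (adjusted p = 3.08e-12 and 4.28e-13), 20.2-fold and 50.8-fold.

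Ms4a6c, expressed in mouse monocytes, went in WT from 125, 145 and 126 reads per M under DMSO to 987, 1029 and 912 under DMXAA. In KO it went from 102, 92.9 and 95.1 to 909, 917 and 949. The genotypes were again apart under DMSO and overlapped under DMXAA. It rose by 3.21 ± 0.0649 (SE) in WT and 3.65 ± 0.0471 in KO (adjusted p = 7.86e-11 and 1.22e-12) on the log2 scale.

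Ms4a6d, reported as a partner of the complement receptor VSIG4 in restraining the NLRP3 inflammasome, had 64.2, 76.2 and 64.1 reads per M in WT under DMSO and 558, 572 and 548 under DMXAA. In KO the values were 54.5, 51.3 and 56.1 under DMSO and 695, 697 and 720 under DMXAA. The KO libraries lay below WT under DMSO and above WT under DMXAA, with no overlap in either. The log2 change was 3.36 ± 0.0646 (SE) in WT and 4.09 ± 0.0495 in KO (adjusted p = 5.62e-11 and 8.34e-13), 10.3-fold and 17.1-fold.

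**Figure D2:**
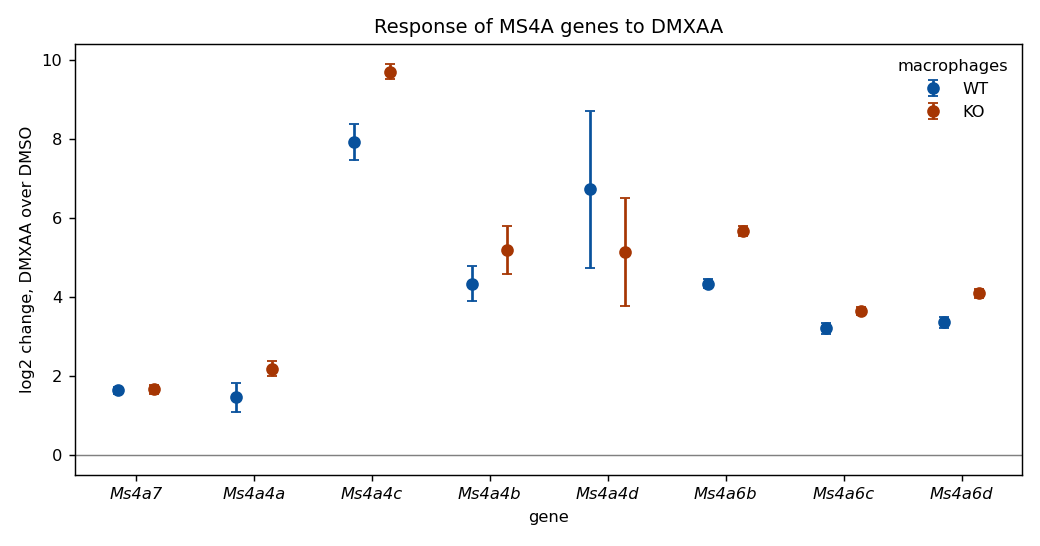
Log2 change of each MS4A gene with DMXAA over DMSO in WT (blue) and KO (brown) macrophages, as fitted with limma; bars are 95% confidence intervals, n = 3 libraries a group. All values lie above 0, Ms4a7 has the same change in both genotypes (1.64 and 1.66), and the values of Ms4a4d depend on the pseudocount because its DMSO libraries hold 0 or 1 read.

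Position within the cluster did not order the responses. The largest change, that of Ms4a4c, lay between the small change of Ms4a4a and the intermediate one of Ms4a4b. The genes at the ends of the stretch, Ms4a7 and Ms4a6d, both on the minus strand, had log2 changes of 1.64 and 3.36 in WT. Within groups, the MS4A4 genes ranged from 1.46 (Ms4a4a) to 7.93 (Ms4a4c) in WT, and the MS4A6 genes from 3.21 (Ms4a6c) to 4.34 (Ms4a6b).

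**Figure D3:**
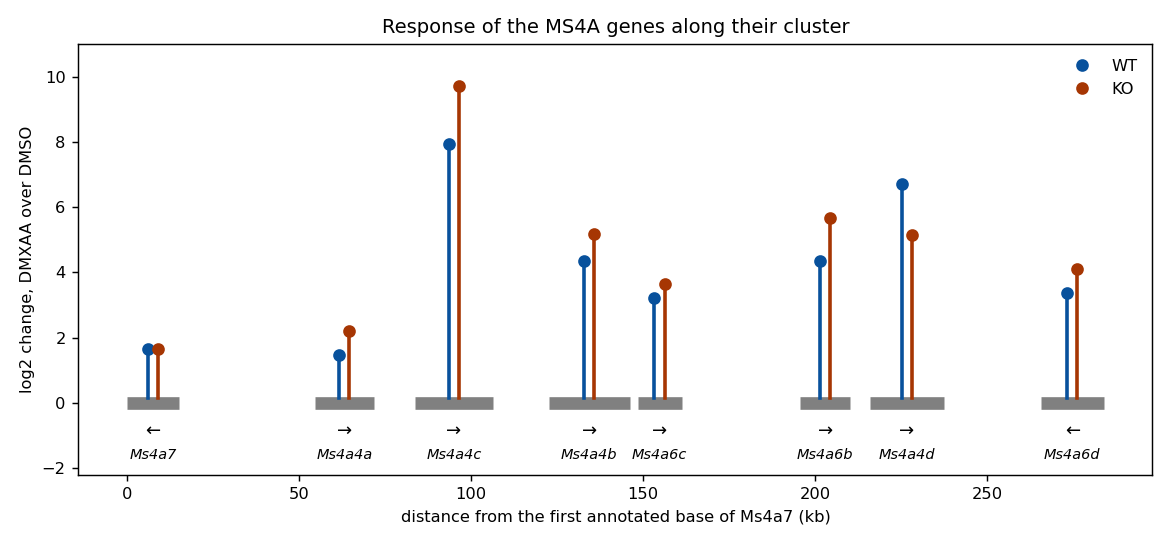
Log2 change with DMXAA in WT (blue) and KO (brown) against position along the cluster, as the distance in kb from the first annotated base of Ms4a7; grey boxes are gene bodies drawn to scale and arrows give the direction of transcription. Ms4a4c has the highest stem in both genotypes, and the genes at both ends point to the left.

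Under DMSO the KO macrophages held less MS4A RNA than WT. Of the 7 genes in the DMSO table, which does not list Ms4a4d, 6 fell in KO against WT, while 9.58% of 12814 genes were called lower, and the KO libraries lay below the WT libraries for all 7 (17.6% of all genes). Their median log2 difference was -0.86 (that of Ms4a4a), beside 0.01 for all genes. The larger differences were those of Ms4a4c (-1.71, SE 0.222, adjusted p = 3.63e-04), Ms4a6b (-1.34, SE 0.0716, adjusted p = 1.55e-06) and Ms4a4a (-0.86, SE 0.165, adjusted p = 4.77e-03). KO thus had 0.305, 0.395 and 0.553 times the WT level. Smaller decreases were found for Ms4a6c (-0.47, SE 0.0667, adjusted p = 6.60e-04), Ms4a6d (-0.36, SE 0.0749, adjusted p = 7.45e-03) and Ms4a7 (-0.20, SE 0.0534, adjusted p = 2.56e-02). Ms4a4b, with 7 to 40 reads a library, had a difference of -1.20 (SE 0.400, 95% interval -2.08 to -0.32) that missed the threshold (adjusted p = 6.55e-02). The call of Ms4a7 was lost on leaving out any 1 library but replicate 3 of KO, with values from -0.25 to -0.16.

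In the same comparison the 8 neutrophil markers summed to 5.50 to 7.84 reads per M in WT and 0.744 to 1.28 in KO, with Elane not listed and Camp and Retnlg at 0 in KO, and 6 of the 7 listed were lower in KO without overlap. The 6 B cell markers summed to 1.16 to 2.02 in WT and 0.422 to 0.811 in KO, and the 6 stromal cell markers to 0.185 to 0.564 in WT and 0.631 to 5.58 in KO. The 8 macrophage markers summed to 20400 to 20900 in WT and 16600 to 17400 in KO. Of these 8, Itgam, Fcgr1 and Lyz2 were lower in KO without overlap, Csf1r was higher without overlap and 4 overlapped. Lyz2, the lysozyme of macrophages, stood at 10450 to 11210 reads per M in WT and 6737 to 7398 in KO, whereas Adgre1, the F4/80 antigen, stood at 4364 to 4679 and 4494 to 4553. The part of these marker lists in the MS4A differences was not tested.

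Under DMXAA the differences between genotypes were at most 0.38 in size for 7 of the 8 genes, and Ms4a6d and Ms4a7 passed the test. Ms4a6d was higher in KO by 0.38 (SE 0.0346, adjusted p = 4.27e-05), or 1.30-fold, and Ms4a7 was lower by 0.18 on the log2 scale (SE 0.0365, adjusted p = 5.86e-03), or 0.884 times the WT level. These are 1 gene higher and 1 lower of 8, where 10.7% of 12499 genes were called higher and 10.8% lower. KO libraries lay above WT libraries without overlap for Ms4a6d and below them for Ms4a4a and Ms4a7, as for 19.1% and 18.5% of all genes. Ms4a4c differed by 0.06 (95% interval -0.04 to 0.16, adjusted p = 4.07e-01), Ms4a6b by -0.01 (-0.10 to 0.07, adjusted p = 8.60e-01) and Ms4a6c by -0.03 (-0.13 to 0.07, adjusted p = 6.85e-01). For these 3 genes the intervals exclude differences of the size measured under DMSO. Ms4a4a (-0.13, 95% interval -0.25 to -0.01, adjusted p = 1.31e-01) and Ms4a4b (-0.34, -0.65 to -0.04, adjusted p = 1.06e-01) were lower in KO without passing the threshold. Without replicate 2 of WT under DMXAA, Ms4a4b was called at -0.48 (adjusted p = 3.59e-02, range over its alternatives 3.59e-02 to 3.15e-01). The median over the 8 genes was -0.08, beside -0.00 for all genes.

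Ms4a4d under DMXAA depended on single libraries and on the tool. The fitted difference of KO against WT was -1.91 (SE 0.768, 95% interval -3.61 to -0.21, adjusted p = 1.07e-01), with groups that overlapped. On the recovered reads it was called, at -2.70 with edgeR (adjusted p = 3.03e-02) and -2.71 with DESeq2 (adjusted p = 4.03e-02), and the authors' deposited table gives -2.71 with an adjusted p of 0.050. Leaving out replicate 1 of WT under DMXAA gave -2.99 (adjusted p = 1.64e-03), and leaving out replicate 3 gave -0.94. Adjusted p ranged from 1.64e-03 to 3.23e-01 over its alternatives.

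**Figure D4:**
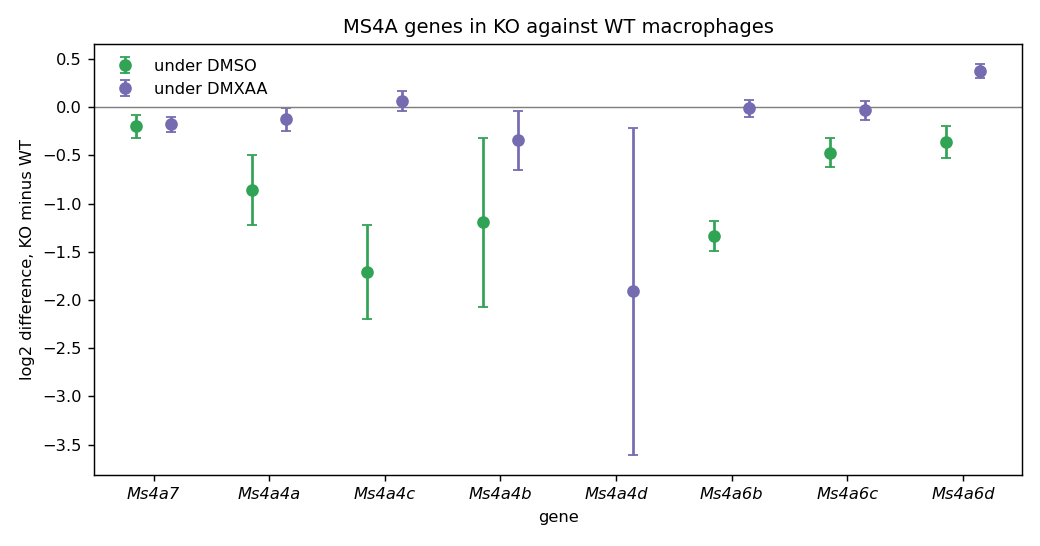
Log2 difference of KO minus WT for each MS4A gene under DMSO (green) and under DMXAA (violet), as fitted with limma; bars are 95% confidence intervals, n = 3 libraries a group. Under DMSO all 7 measured genes lie below 0, down to -1.71 for Ms4a4c; under DMXAA Ms4a6d lies above 0 at 0.38 and Ms4a4d has an interval from -3.61 to -0.21.

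The response to DMXAA was therefore larger in KO for most of the genes, which was tested as the interaction of genotype and treatment over the 12 libraries. The interaction equals the genotype difference under DMXAA minus that under DMSO, so the lower starting level in KO enters it. It was higher in KO for 5 of the 7 genes tested, where 5.37% of 12729 genes were called higher. The values were 1.77 for Ms4a4c (SE 0.258, adjusted p = 6.08e-04), 1.33 for Ms4a6b (SE 0.0707, adjusted p = 1.21e-07), 0.73 for Ms4a6d (SE 0.0850, adjusted p = 1.11e-04), 0.73 for Ms4a4a (SE 0.202, adjusted p = 3.83e-02) and 0.44 for Ms4a6c (SE 0.0844, adjusted p = 4.73e-03). The median of the 7 was 0.73, beside 0.00 for all genes. Ms4a4b had 0.85 (95% interval 0.09 to 1.62, adjusted p = 1.73e-01) and Ms4a7 0.02 (-0.12 to 0.16, adjusted p = 8.98e-01).

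The call of Ms4a4a in the interaction was not firm: it was lost in 9 of 12 fits that left out 1 library (0.50 to 0.89) and on rescaling libraries to the same total (0.66, adjusted p = 6.43e-02, range over its alternatives 2.08e-03 to 8.67e-02). The other 4 kept their calls in all alternatives run. Ms4a4d is not in the DMSO table, and in a fit from the WT and KO tables its interaction was -1.58 (adjusted p = 4.68e-01). Ms4a4c, Ms4a6b and Ms4a6c had a gap between genotypes under DMSO and intervals that include 0 under DMXAA. For Ms4a6d the KO libraries crossed from below to above WT.

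The 8 genes together took 0.104% ± 0.00180 (SD, n = 3) of all reads in WT and 0.0874% ± 0.00396 in KO under DMSO, and 0.524% ± 0.0185 and 0.504% ± 0.0105 under DMXAA. Under DMSO Ms4a7 made up 76.0% ± 1.86 of these reads in WT and 80.2% ± 1.0 in KO. Under DMXAA its part was 37.8% ± 1.10 and 33.7% ± 0.525, although its own level had risen. Ms4a4c went from 0.626% ± 0.245 to 23.3% ± 0.719 of the family's reads in WT, and from 0.220% ± 0.0199 to 24.5% ± 0.161 in KO. Ms4a6d held 10.7% ± 0.143 in WT and 14.0% ± 0.176 in KO under DMXAA, the share that differed most between the genotypes after that of Ms4a7. Ms4a6b (8.78% in both) and Ms4a6c (18.6% and 18.4%) had like shares there.

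**Figure D5:**
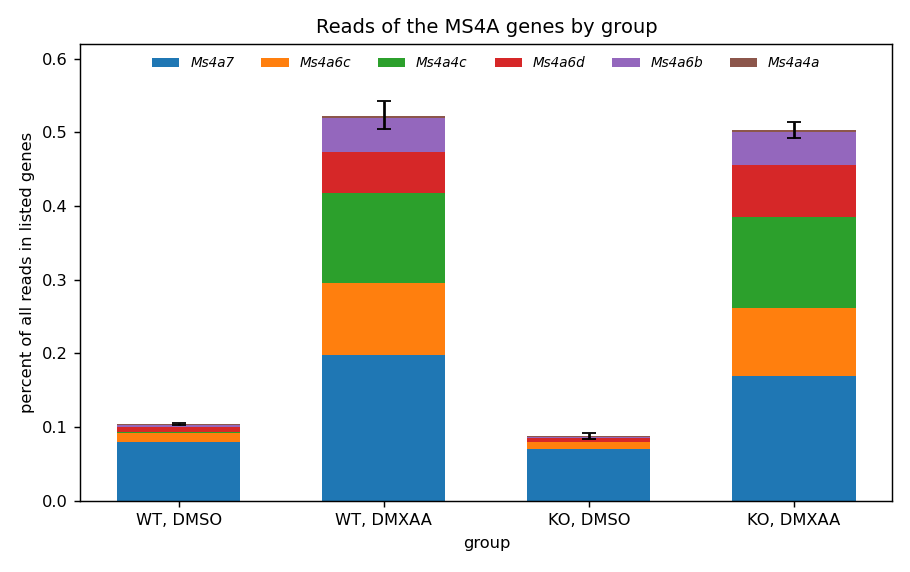
Percent of all reads in listed genes that belong to the MS4A genes, by group, stacked by gene (means of 3 libraries; error bars are the SD of the sum; Ms4a4b and Ms4a4d are too small to draw). The sum is 0.104% and 0.0874% in the DMSO bars and 0.524% and 0.504% in the DMXAA bars, and the layer of Ms4a4c is wide in the DMXAA bars alone.

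Levels were compared between genes per kilobase of exon (RPKM, reads per kilobase and M reads), and the order depended on the exons counted. With the exons of the basic annotation, the order under DMSO was Ms4a7, Ms4a6c, Ms4a6d, Ms4a4a, Ms4a6b, Ms4a4c, Ms4a4b and Ms4a4d, from 462 RPKM for Ms4a7 and 71.6 for Ms4a6c down to 3.78 for Ms4a4c and 0.0710 for Ms4a4b in WT. KO had the same order, from 409 RPKM for Ms4a7 to 0.0310 for Ms4a4b. All exons merged gave the same order under DMSO in both genotypes, and no neighbours in it overlapped. Under DMXAA the basic exons gave Ms4a7 (1155 RPKM in WT, 990 in KO), Ms4a4c (709 and 716), Ms4a6c (530.0 and 502), Ms4a6d (364 and 458), Ms4a6b (172 and 165) and Ms4a4a (39.5 and 35.1), with Ms4a4b and Ms4a4d at or under 1.51. Ms4a4d and Ms4a4b overlapped there in WT. Merging all exons, which gives Ms4a7 a length of 4453 instead of 1714 bases, put Ms4a4c first (698 in WT, 705 in KO) and Ms4a7 after Ms4a6c in WT (445 against 476, overlapping) and after Ms4a6c and Ms4a6d in KO (381 against 451 and 406).

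Reads that fall in sequence shared between these related genes can be split or lost in counting, and how such reads were treated is not given in the sources used here. Of the 50-base stretches in annotated transcripts, 10.5% of those of Ms4a6c and 8.19% of those of Ms4a4c also occur in another gene. The MS4A genes among these were Ms4a6b for Ms4a6c, and Ms4a4b and Ms4a4d for Ms4a4c. The share was 3.57% for Ms4a6b, 2.54% for Ms4a6d, 2.40% for Ms4a4b, 0.546% for Ms4a4d, 0.306% for Ms4a7 and 0 for Ms4a4a. With stretches of 100 bases it was at most 1.66%. Ms4a4b had 427 to 533 reads in WT under DMXAA, beside 97116 to 119770 of its neighbour Ms4a4c.

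The other 8 listed genes of the family were low. Ms4a8a, known from the gut and from some activated macrophages, had 1, 3 and 2 reads in WT and 2, 3 and 0 in KO under DMSO, and 55, 79 and 53 in WT and 110, 139 and 129 in KO under DMXAA. Its fitted changes were 4.69 (SE 0.439) in WT and 5.99 (SE 0.503) in KO, where it passed the filter through the DMXAA libraries alone, and it was higher in KO than WT under DMXAA by 0.94 (SE 0.196, adjusted p = 6.50e-03). Ms4a1, the gene of CD20, had 0, 0 and 3 reads in WT under DMSO and 28, 26 and 20 under DMXAA, a ratio of reads of 24.8 (95% counting interval 8.16 to 123). In KO it had none under DMSO and 11, 19 and 22 reads under DMXAA, at least 15.7-fold higher. The B cell marker Ebf1 is not listed, and in those DMXAA libraries the 6 B cell markers summed to at most 0.611 reads per M. Ms4a3, Ms4a5, Ms4a12, Ms4a15, Ms4a19 and Ms4a20 had at most 12 reads in any library.

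Tmem176a and Tmem176b, related membrane proteins encoded elsewhere that act as cation channels in myeloid cells, moved the other way. Tmem176b went from 94.0, 99.7 and 95.9 reads per M under DMSO to 22.6, 25.8 and 23.7 under DMXAA in WT, and from 138, 138 and 167 to 20.9, 17.2 and 19.5 in KO. It fell by 1.69 (adjusted p = 7.01e-09) and by 2.55 (adjusted p = 3.04e-09) on the log2 scale, where 31.1% and 32.9% of all genes were called lower. Tmem176a fell by 0.49 (adjusted p = 5.89e-03) in WT and by 1.57 (adjusted p = 8.05e-06) in KO. Under DMSO both were higher in KO than WT, by 0.58 for Tmem176b (adjusted p = 4.79e-04) and 0.64 for Tmem176a (adjusted p = 9.23e-03), where 7.04% of genes were called higher. Their interactions were -0.86 (adjusted p = 4.61e-04) and -1.08 (adjusted p = 5.46e-03), with 3.24% of genes called lower, the opposite sign to those of the 5 MS4A genes called. Under DMXAA both were lower in KO, with differences of -0.45 for Tmem176a and -0.28 for Tmem176b (adjusted p = 4.09e-02 and 2.66e-02).

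Of the 13 genes outside the family that lie within the cluster or next to it, 6 were tested in WT, and 4 rose and 1 fell with DMXAA (31.7% and 31.1% of all genes). Gm8369, a predicted gene that lies between Ms4a6c and Ms4a6b (chr19:11485938-11512577), had 3, 5 and 7 reads in WT under DMSO and 466, 524 and 371 under DMXAA. In KO it had 8, 4 and 2 and then 642, 439 and 683, a fitted change of 6.57 in WT and 7.04 in KO. Gm8369 passed the filter through its DMXAA libraries alone, so its call adds nothing to the 4 that rose. Ms4a4b shares some 50-base stretches with it. At the edge of the cluster, Ccdc86, a nucleolar protein gene, rose by 1.73 in WT (adjusted p = 8.35e-09), Ptgdr2, a prostaglandin D receptor, by 1.38 (adjusted p = 1.58e-04), and Mrpl16, of the mitochondrial ribosome, by 0.53 (adjusted p = 2.09e-04). Ccdc86 and Ptgdr2 overlap at their ends on opposite strands, and whether counting used strand is not given in the sources used here. Tmem109, a membrane protein of the nucleus and endoplasmic reticulum, fell by 0.79 (adjusted p = 1.29e-06).

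Genes of proteins reported to act with MS4A proteins were called lower with DMXAA more often than higher, some by small amounts. Of 12 such genes 2 rose and 8 fell with DMXAA in WT, with a median of -0.47, and 2 rose and 7 fell in KO, with a median of -0.15. Over all genes 31.7% rose and 31.1% fell in WT, and 33.7% and 32.9% in KO. Fcer1g, the signalling chain shared by Fc receptors, rose by 0.93 in WT (adjusted p = 1.54e-06). Cd14, the co-receptor for lipopolysaccharide, fell by 2.51 on the log2 scale (adjusted p = 7.58e-11), and Cd36, a scavenger receptor, fell by 1.08 (adjusted p = 1.93e-08). Cd36 was also lower in KO than WT under DMSO, where 3 of the 12 were higher (7.04% of all genes) and Cd36 alone lower (9.58%), and its difference with DMXAA in KO was -0.13 (adjusted p = 6.72e-02). Vsig4 and Clec7a, chosen here after their values were seen as the partners of Ms4a6d and of human MS4A4A, had log2 changes of -2.22 and -0.60 with DMXAA in WT (adjusted p = 8.00e-03 and 3.94e-06), and of -0.99 and -0.10 in KO (adjusted p = 9.44e-03 and 8.57e-02). Vsig4, with 3 to 24 reads a library in WT under DMXAA, was higher in KO than WT already under DMSO, by 1.03 (adjusted p = 1.05e-02). Both were higher in KO than WT under DMXAA, Vsig4 by 2.24 and Clec7a by 0.54 (adjusted p = 2.22e-02 and 1.99e-05).

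Genes of type I interferon signalling, the receptor, kinase and factor chain by which interferon acts, rose for 9 of 12 tested with DMXAA in WT and 9 of 12 in KO, and 2 fell in each, beside 31.7% and 33.7% of all genes called higher. Stat2 rose by 3.51 and Irf7 by 4.84 in WT (adjusted p = 8.48e-12 and 2.68e-11). Of 15 interferon-stimulated reference genes all 15 rose in both genotypes, with medians of 5.73 in WT and 6.53 in KO, among them Ifi44 (5.87 in WT), Gbp2 (6.86) and Isg15 (5.73). Under DMSO 14 of the 15 were lower in KO than WT (median -0.90; 9.58% of all genes), and 13 had a larger response in KO in the interaction (median 0.66; 5.37% of all genes). Under DMXAA 9 of the 15 were lower in KO (median -0.21; 10.8% of all genes), whereas Ms4a6d was higher.

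Markers of alternative activation, the macrophage state linked to interleukin-4, with which human MS4A4A is often listed, were called lower for 4 of 8 tested in WT, beside 31.1% of all genes. Il4ra rose (1.08, adjusted p = 1.52e-06) and Stab1 (-1.28), Cd163 (-4.97), Mrc1 (-1.95) and Clec10a (-1.03) fell, with adjusted p from 2.01e-08 to 2.30e-05 for the last 3 and 4.48e-09 for Stab1. Of 12 tested genes often listed with Ms4a7 in tissue-resident macrophages, 9 fell in WT (median -1.19; 31.1% of all genes) and 11 in KO (median -1.40; 32.9%), while Ms4a7 rose. Gas6, a ligand for uptake of dead cells, fell by 2.54 on the log2 scale, Selenop, the selenium carrier, fell by 2.15, and Apoe, the lipid carrier, fell by 1.72 in WT (adjusted p = 4.45e-10, 9.45e-10 and 1.22e-09).

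For each member the 2 genes of most similar pattern were taken among 10400 candidates, by the root mean square difference of log2 reads per M over the 12 libraries after centring each gene. Ms4a7 was nearest to Tmem219 (0.047) and Bak1 (0.066), and Ms4a6c to Ddx58, the RIG-I gene (0.086), and Fcgr1, the high-affinity IgG receptor (0.101). Ms4a6d was nearest to Fcgr1 (0.133) and Cd274, the PD-L1 gene (0.165). For Ms4a6b they were Mx2 (0.149) and Il18bp (0.151), both antiviral or cytokine-blocking genes, and for Ms4a4c Slfn4 (0.238) and the chemokine gene Ccl5 (0.252). Ms4a4b was nearest to Xaf1 (0.239) and Herc6 (0.275), and Ms4a4a to Slc18a1 (0.200). Ms4a4d was under the minimum of 1 read per M. Among the members themselves the most alike were Ms4a6c and Ms4a6d (0.215) and then Ms4a4a and Ms4a7 (0.318), and the least alike Ms4a4c and Ms4a7 (3.61). The 12 points share 4 group means, so these distances mostly reflect the size of the response and of the genotype gap.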

How the data were processed

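RNA-seq libraries of mouse bone marrow-derived macrophages (WT or MGMT KO, DMSO or DMXAA for 24 h, 3 libraries a group) were grouped by their titles. Per the labels' protocols, strand-specific mRNA libraries were made from RNA purified with an RNeasy kit. The submitters' processing notes name HISAT2, featureCounts and mm10. Versions and counting options are not given in the sources used here. Normalized counts were deposited by the authors (signal values on the scale of each table) in 4 tables of 6 libraries, listing genes with reads in at least 2 libraries of a table. Division by the smallest value above 0 in a library returned whole reads for 100% of values (tolerance 0.01). The deposited comparison tables give log2 fold changes, p-values and adjusted p-values (the authors' own).

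Each pair of groups was fitted within its table with limma 3.58.1 (lmFit, eBayes with trend) on log2(normalized count + 1), for genes with a mean of at least 10. Calls are at a two-sided Benjamini-Hochberg adjusted p below 0.05 over all genes tested. Fold changes are on the log2(value + pseudocount) scale, which understates changes of low genes. The interaction was fitted over the 12 libraries, as scaled in the tables by treatment. Reads per M describe levels and were not tested. The fits were also run on simulated reads that had the same spread beyond counting error for every gene. That check does not cover genes as variable between replicates as Ms4a4d.

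Alternatives were pseudocounts of 0.5 and 5, no filter, other scalings, edgeR 4.0.16 and DESeq2 1.42.0 on recovered reads, replicate blocks, and leaving out each library. Coordinates are from GENCODE vM21, in which 97.28% of symbols had 1 position, and start regions from RefSeq (GRCm38.p6). Members, gene lists and tests were chosen with earlier results of these data known. Named genes were all members and listed relatives, the 3 genes of smallest p in each other list (all called ones where 5 or fewer), the 2 of most similar pattern and the neighbours. Some genes that this rule names are not reported here. Reads are not molecules, so counting intervals and floors cover counting error only.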

Additional observations from a re-analysis of the deposited data

Results flagged for a closer look

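For 5 MS4A genes the response to DMXAA differed between the genotypes by the interaction test (limma, adjusted p below 0.05), with KO minus WT differences of 0.73 for Ms4a4a, 1.77 for Ms4a4c, 1.33 for Ms4a6b, 0.44 for Ms4a6c and 0.73 for Ms4a6d on the log2 scale. The response was higher in KO for each of them, 2.19 against 1.46 for Ms4a4a, 9.71 against 7.93 for Ms4a4c, 5.67 against 4.34 for Ms4a6b, 3.65 against 3.21 for Ms4a6c and 4.09 against 3.36 for Ms4a6d. The relatives Tmem176a and Tmem176b were flagged by the same test with -1.08 and -0.86, a deeper fall in KO. The call of Ms4a4a was lost in 9 of 12 fits without 1 library and on rescaling to equal totals.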

How the results depend on the processing

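The alternatives here are those named above. Beside the values below and the call of Ms4a7 in KO against WT under DMSO, which was lost in 5 of 6 fits without 1 library, and that of Ms4a4a in the interaction, which was lost in 9 of 12, the calls of the MS4A genes stayed on their side of the threshold with the same sign in every alternative run. In KO against WT under DMXAA, 2 genes were called lower with edgeR and with DESeq2 instead of 1, the second being Ms4a4d. Rescaling libraries to the same total turned the interaction of Ms4a7 to -0.0479 and ended the call of Ms4a4a. That scaling also moved the median over all genes by -0.32 in the DMXAA response of WT and -0.39 in KO. All 8 MS4A genes remained called higher with it, although the call of Ms4a4d, filtered in through DMXAA libraries alone, adds nothing. The percentage higher among called genes went from 50.5% to 22.3% in WT and from 50.6% to 20.3% in KO. The same upper quartile gave 37.4% and 36.7%. In the interaction the same total moved that share from 62.4% to 39.2%, in KO against WT from 49.7% to 34.3% under DMXAA and from 42.4% to 50.9% under DMSO.

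Leaving out each library in turn gave 7350 to 7864 genes called in the DMXAA response of WT (8007 with all), 7816 to 8138 in KO (8462), 1399 to 1897 in KO against WT under DMSO (2129), 2005 to 2270 under DMXAA (2686) and 831 to 1112 in the interaction (1095). The 1399 came without replicate 1 of KO under DMSO. MS4A genes called lower in KO under DMXAA ranged from 1 to 2, gaining Ms4a4d without replicate 1 and Ms4a4b without replicate 2 of WT. Differences near 0 changed sign: Ms4a6b (-0.0386 to 0.0149) and Ms4a6c (-0.0766 to 0.0097) in KO against WT under DMXAA, and Ms4a7 in the interaction (-0.0151 to 0.0746).

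Replicate numbers are those of the sample titles. The library names carry other numerals, II to IV for DMSO and I to III for DMXAA. Same-numbered samples did not deviate together (correlations from -0.036 to 0.066). With 3 libraries a group this check cannot show whether such samples share an origin. With a replicate block 7865, 8267, 1915, 2491 and 989 genes were called in the 5 comparisons, and 8, 8, 6, 2 and 5 MS4A genes as without it. Both counts of 8 include Ms4a4d, whose call adds nothing. A replicate block by library-name numeral gave 6879 and 7990 in the DMXAA responses. Ms4a4b and Ms4a4d had under 50 reads in each DMSO library, so their values there carry a large counting error. Ms4a4d also varied widely between the WT replicates under DMXAA.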
